A study of Caenorhabditis elegans with 9 samples.

Results

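The vitellogenins and the yolk receptor of Caenorhabditis elegans were followed on 9 whole-animal expression arrays. Probe sets were taken where the platform annotation names 1 gene among vit-1 to vit-6 and rme-2, or lists only vit genes. This gave 11 of the 22625 probe sets on the array, 10 for vitellogenins and 1 for rme-2. They name 6 of the 7 genes, as no probe set used here names vit-3, beside 17118 genes that probe sets of the array name alone. Of the 10 vitellogenin sets, 1 is for vit-1 (177065_at), 1 for vit-2 (191323_at), 3 for vit-4 (171723_x_at, 172134_x_at and 172673_x_at), 1 for vit-5 (172696_x_at), 2 for either vit-4 or vit-5 (172133_x_at and 194239_x_at) and 2 for vit-6 (173411_s_at and 190649_at). The rme-2 set is 191883_at.

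Vitellogenins are the precursors of yolk, large lipid-carrying proteins of the apolipoprotein B family. In C. elegans the intestine of the adult hermaphrodite makes them and secretes them into the body cavity, and growing oocytes take them up. RME-2, a receptor of the low-density lipoprotein receptor family on the oocyte surface, binds yolk for endocytosis. The genes vit-3, vit-4 and vit-5 are nearly identical in sequence, and vit-1 and vit-2 resemble each other closely, so their probe sets can share signal and are not independent measurements. Probe sequences were not used here, and how far each set detects its neighbours in sequence, vit-3 included, is unknown.

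All animals were labelled as L1 larvae, the first larval stage, synchronised by bleaching and fed OP50 bacteria, and RNA came from whole bodies. The 3 arrays of N2, the wild-type laboratory strain without a transgene, were the control. The 3 arrays of strain JS62 (aex-3::his-SUMO-1, called aex-3 SUMO here) came from worms that carry His-tagged SUMO-1, a small protein attached to other proteins much as ubiquitin is, under the aex-3 promoter, which is active in neurons. The 3 arrays of strain JS63 (myo-4::his-SUMO-1, called myo-4 SUMO) came from worms with the same tagged protein under the promoter of myo-4, another name of the body wall muscle myosin gene unc-54. Each group stands for 3 biological replicate populations, and each promoter is represented by 1 strain. The labels do not say how the transgenes were carried, and no line with an empty transgene is among the groups.

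Signals are linear intensities as deposited, scaled between arrays to a common trimmed mean. The median signal of an N2 array lay between 27.6 and 28.6, and that of a transgenic array between 23.2 and 25.7. The mean of the 200 brightest probe sets was 5058 to 5713 on the N2 arrays, 4090 to 4472 for aex-3 SUMO and 3710 to 4772 for myo-4 SUMO, so the bright end of the scale, where the yolk sets lie, was lower in both lines. The smo-1 transcript, which encodes SUMO, rose by 0.69 ± 0.13 (log2, SE) in aex-3 SUMO and by 0.59 ± 0.13 in myo-4 SUMO (limma adjusted p = 0.00117 and 0.00318). Whether its probe set detects the transgene is unknown. Whole animals were measured, so a change in RNA per cell cannot be told apart from a change in the share of cells that make it.

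Yolk transcripts were among the brightest on every array, although vitellogenin genes are known for expression in adults. The lowest percentile rank of a vitellogenin set on any array was 95.6, and that of rme-2 was 93.3. All 11 sets passed the filter on dim probe sets. The 28 sperm genes of a marker list had a median percentile rank of 98.8 to 99.2 and the 20 oocyte and eggshell genes one of 92.4 to 97.2. Sperm and oocyte genes are known for expression in the germ line of older animals, so these levels go against a sample of first-stage larvae alone, and the stage is given here as the labels state it.

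**Figure D1:**
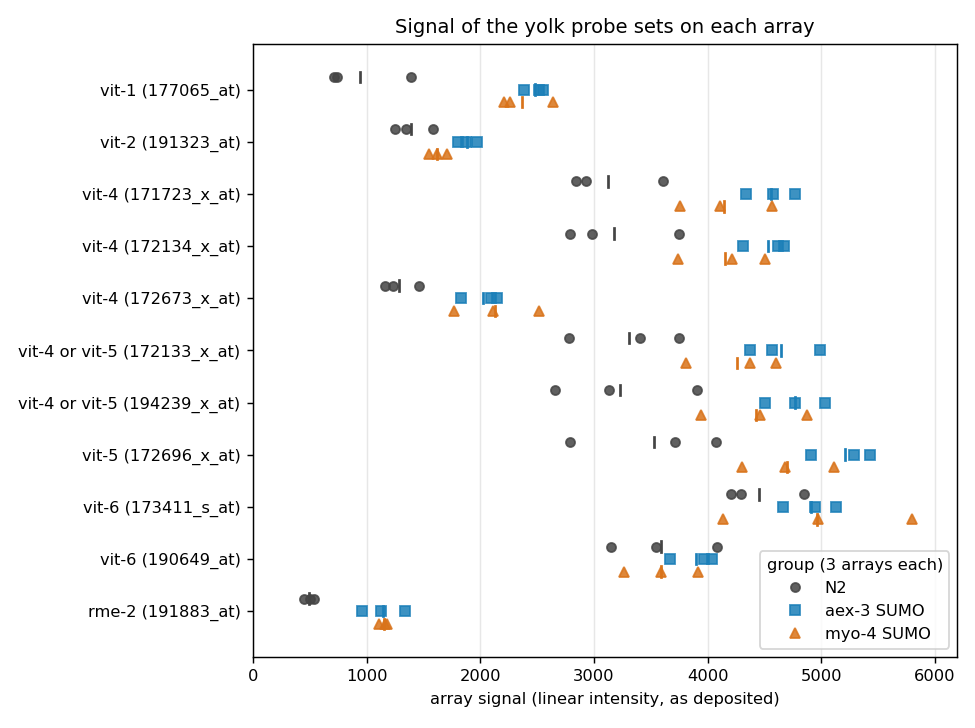
Linear array signal (x axis, intensity as deposited) of the 11 yolk probe sets (rows) in N2, aex-3 SUMO and myo-4 SUMO. Points are single arrays, 3 per group, and short bars are group means. For vit-1 and rme-2 both lines lie well above N2, the vit-4 and vit-5 sets are shifted by less, and the groups overlap for both vit-6 sets.

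The vit-1 signal was 734 on N2 replicate 1, 1391 on replicate 2 and 708 on replicate 3. It was 2385, 2548 and 2514 on the aex-3 SUMO arrays and 2259, 2636 and 2212 on the myo-4 SUMO arrays. N2 replicate 2 stood apart from the other N2 arrays, and every transgenic array was above it. Mean signals were 944 ± 387 in N2, 2482 ± 86.2 in aex-3 SUMO and 2369 ± 232 in myo-4 SUMO (SD, n = 3 arrays each). The log2 fold change over N2 was 1.47 ± 0.20 (SE) in aex-3 SUMO, a fold of 2.76 (limma adjusted p = 0.000145). In myo-4 SUMO it was 1.39 ± 0.20, a fold of 2.63 (limma adjusted p = 0.000218). Among all probe sets tested these changes lay at the 99.4 and 99.3 percentiles. Without N2 replicate 2 they were 1.78 and 1.71.

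The vit-2 set rose in aex-3 SUMO, and its difference in myo-4 SUMO did not pass. Its signals were 1585, 1347 and 1247 in N2, 1804, 1873 and 1973 in aex-3 SUMO and 1617, 1704 and 1545 in myo-4 SUMO, in the order of the replicate numbers. Every aex-3 SUMO array was above every N2 array, whereas myo-4 SUMO overlapped N2. The rise in aex-3 SUMO was 0.44 ± 0.11 (limma adjusted p = 0.00474). In myo-4 SUMO the difference was 0.23 ± 0.11 with a 95% interval of -0.0045 to 0.46, and it did not pass (limma adjusted p = 0.102). It did pass under quantile normalization (0.43, limma adjusted p = 0.00433) and under median centring (0.37, limma adjusted p = 0.0214), as well as without N2 replicate 1 (0.32, limma adjusted p = 0.0137).

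All 6 sets of vit-4 and vit-5 rose in both lines, and since these genes share most of their sequence the sets are not separate measurements. The vit-5 set read 3713, 4078 and 2790 in N2, 4908, 5286 and 5427 in aex-3 SUMO and 4303, 5114 and 4679 in myo-4 SUMO. All transgenic arrays lay above all N2 arrays, by a small margin in myo-4 SUMO, whose lowest array was at 4303 against 4078 for the highest N2 array. The changes were 0.58 ± 0.13 in aex-3 SUMO (limma adjusted p = 0.00325) and 0.43 ± 0.13 in myo-4 SUMO (limma adjusted p = 0.0185). The latter call was lost without N2 replicate 3 (0.27, limma adjusted p = 0.0722) and without myo-4 SUMO replicate 2 (0.37, limma adjusted p = 0.0676). It was also lost with no filter on dim probe sets.

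Over all 6 sets the rise in aex-3 SUMO ran from 0.50 (172133_x_at) to 0.66 (172673_x_at), and that in myo-4 SUMO from 0.37 to 0.72 for the same sets, and each of the 6 passed in both lines. In myo-4 SUMO the call held under 12 of 18 alternatives for 172133_x_at, 14 for 172134_x_at, 15 for vit-5 and 16 for 194239_x_at. It held under all 18 for 171723_x_at and 172673_x_at. The 172673_x_at set of vit-4 read 1230, 1458 and 1161 in N2, 2094, 2150 and 1833 in aex-3 SUMO and 1765, 2515 and 2116 in myo-4 SUMO. The other 5 sets lay between 2656 and 4078 in N2, between 4314 and 5427 in aex-3 SUMO and between 3743 and 5114 in myo-4 SUMO. Only 1 of the 6, the vit-4 set 172134_x_at, overlapped between myo-4 SUMO and N2, at 3743 for the lowest myo-4 SUMO array and 3752 for the highest N2 array.

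The vit-6 gene encodes the yolk precursor most distant in sequence from the others, and its sets had the smallest changes of the yolk sets. The 173411_s_at set read 4295, 4850 and 4208 in N2, 4662, 4949 and 5130.0 in aex-3 SUMO and 4133, 5796 and 4971 in myo-4 SUMO. The 190649_at set read 4084, 3542 and 3147 in N2, 3669, 3973 and 4042 in aex-3 SUMO and 3266, 3918 and 3595 in myo-4 SUMO. The groups overlapped for both sets. In aex-3 SUMO the differences were 0.14 ± 0.12 and 0.12 ± 0.11, and in myo-4 SUMO 0.15 ± 0.12 and 0.0048 ± 0.11, with limma adjusted p-values of 0.335 to 0.978. The 95% intervals reached up to 0.41, so a rise of the size seen for the vit-4 or vit-5 set 172133_x_at in myo-4 SUMO (0.37) lies inside the interval of 173411_s_at.

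The receptor gene rme-2 rose in both lines. Its signals were 499, 539 and 447 in N2, 1127, 961 and 1335 in aex-3 SUMO and 1108, 1161 and 1180 in myo-4 SUMO. The lowest transgenic array, at 961, was well above the highest N2 array, at 539. Means were 495 ± 45.8 in N2, 1141 ± 187 in aex-3 SUMO and 1149 ± 37.0 in myo-4 SUMO (SD, n = 3 arrays each). The change was 1.19 ± 0.12 in aex-3 SUMO, a fold of 2.29 (limma adjusted p = 3.32e-05), and 1.22 ± 0.12 in myo-4 SUMO, a fold of 2.32 (limma adjusted p = 2.44e-05).

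In all, 9 of 11 yolk sets were called in aex-3 SUMO, 8 of the 10 vitellogenin sets and rme-2, each of them higher. Of the 14204 probe sets tested, 48.1% were called in either direction there, 3423 of them higher. In myo-4 SUMO 7 of 10 vitellogenin sets and rme-2 rose, where 24% were called higher. No yolk set fell in either line by limma, nor did any at an unadjusted p below 0.05 (0 of 11). Because 6 of the 10 sets belong to vit-4 and vit-5, the counts say little more than that vit-1, vit-2 and the vit-4 and vit-5 pair rose in aex-3 SUMO, and vit-1 and that pair in myo-4 SUMO. The median change of the vitellogenin sets was 0.54 and 0.40, beside -0.037 and 0.0039 for all probe sets tested. The arrays of aex-3 SUMO lay above all N2 arrays for 8 of 10 vitellogenin sets (27.4% of all probe sets), and those of myo-4 SUMO for 6 of 10 (27% of all). Both comparisons share the N2 arrays. In the comparison of myo-4 SUMO with N2 the number of vitellogenin sets called higher was 3 without N2 replicate 3 and 3 without myo-4 SUMO replicate 2, in place of 7, those of vit-1 and of the vit-4 sets 171723_x_at and 172673_x_at each time. It was 4 with no filter on dim probe sets, which adds probe sets to the adjustment. In aex-3 SUMO it was 8 whichever array was left out.

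**Figure D2:**
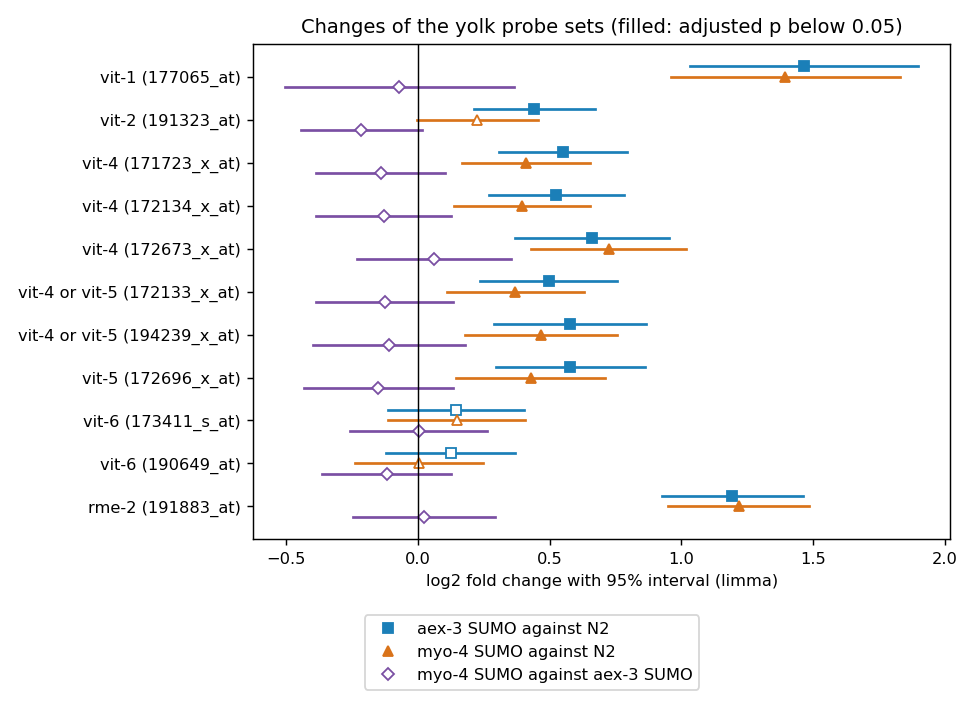
Log2 fold change (x axis) with 95% interval for the 11 yolk probe sets (rows) in 3 comparisons, from the limma fit on all 9 arrays. Filled symbols have an adjusted p below 0.05, which 9 sets reach in aex-3 SUMO against N2 and 8 in myo-4 SUMO against N2, and none between the lines.

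The lines themselves were not told apart by any yolk set. No set was called between myo-4 SUMO and aex-3 SUMO, a comparison in which 0.239% of all probe sets were called. At an unadjusted p the lowest value was that of vit-2 (limma, 0.0637, adjusted p = 0.598), whose myo-4 SUMO arrays all lay below its aex-3 SUMO arrays (8.24% of all probe sets did so). Its difference was -0.22 with a 95% interval of -0.45 to 0.014. For rme-2 the difference was 0.023 with an interval of -0.25 to 0.29, and for vit-1 it was -0.071 with an interval of -0.51 to 0.36.

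Few other transcripts among the very brightest were called higher. Among the 200 brightest probe sets tested, a cutoff chosen after the values were seen, 7 were yolk sets. They were both vit-6 sets, which were not called, and the vit-4 and vit-5 sets other than 172673_x_at. That set and those of vit-1, vit-2 and rme-2 were dimmer, so this group gives no background for them. Of the other 193, only 1, the set of the collagen gene col-119, was called higher in aex-3 SUMO, and 99 were called lower, at a median change of -0.30. In myo-4 SUMO again col-119 alone was called higher and 108 were called lower, at a median of -0.30. Quantile normalization, which sets the bright ends of the arrays equal, took these medians to -0.0080 and -0.0082, with 11 higher and 21 lower in aex-3 SUMO and 10 higher and 11 lower in myo-4 SUMO.

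Under that scaling all 10 vitellogenin sets passed in both lines. The vit-6 sets then stood at 0.40 and 0.34 in aex-3 SUMO (limma adjusted p = 0.000482 and 0.00227) and at 0.42 and 0.25 in myo-4 SUMO (limma adjusted p = 0.000434 and 0.0133). The vit-5 set moved from 0.58 to 0.86 in aex-3 SUMO and from 0.43 to 0.70 in myo-4 SUMO, and rme-2, which is dimmer, stayed at 1.20 and 1.25. Median centring gave 10 vitellogenin sets higher in aex-3 SUMO and 8 in myo-4 SUMO, and moved the median of all probe sets tested to 0.18 and 0.15. Whether vit-6 changed therefore depends on the scaling, while the rises of vit-1, of the vit-4 sets 171723_x_at and 172673_x_at and of rme-2 passed in both lines under each of the 18 alternatives.

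**Figure D3:**
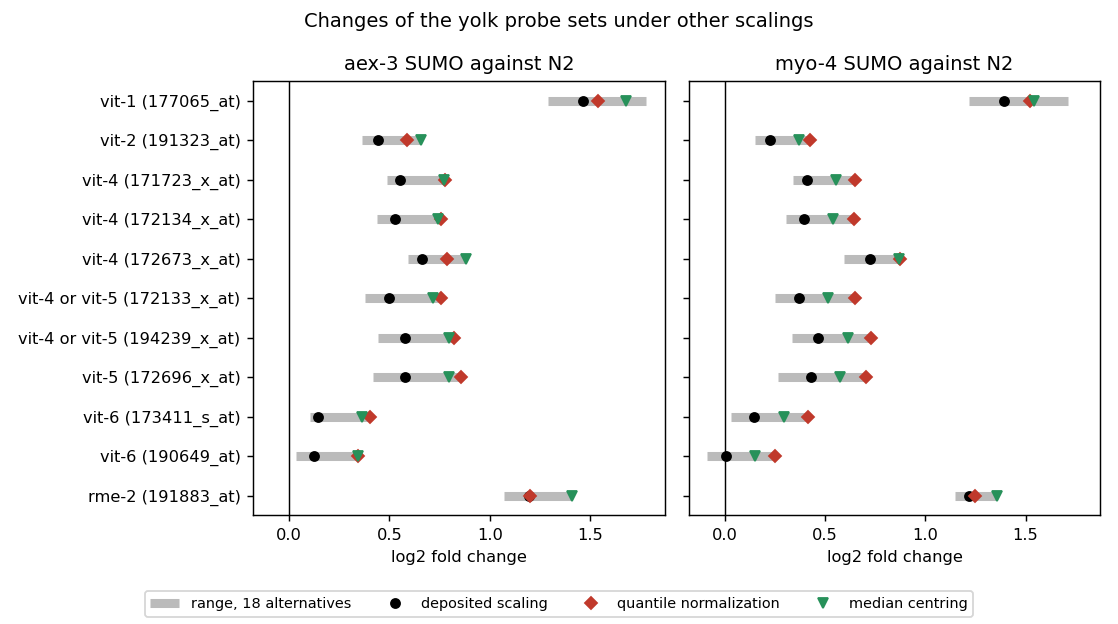
Log2 fold change over N2 (x axis) of the 11 yolk probe sets (rows) in aex-3 SUMO (left) and myo-4 SUMO (right) with the deposited scaling, quantile normalization and median centring. Grey bars span the 18 alternative settings. The vit-6 sets move from near 0 to between 0.25 and 0.42 under quantile normalization, and rme-2 hardly moves under it.

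The place of each set in the order of brightness does not depend on a linear rescaling of the array. All 11 sets stood nearer the top on every aex-3 SUMO array and on every myo-4 SUMO array than on any N2 array. The share of all probe sets whose places separated in this way was not computed, so the count has no background. The vit-5 set held places 179 to 280 from the brightest in N2, 15 to 23 for aex-3 SUMO and 26 to 72 for myo-4 SUMO. The vit-6 set 173411_s_at, whose linear signals overlapped, held places 115 to 177, 35 to 52 and 25 to 49. The rme-2 set moved from places 1289 to 1504 in N2 to 509 to 719 and 582 to 592. Such a place also depends on the signals of the other bright sets, which were lower in both lines.

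**Figure D4:**
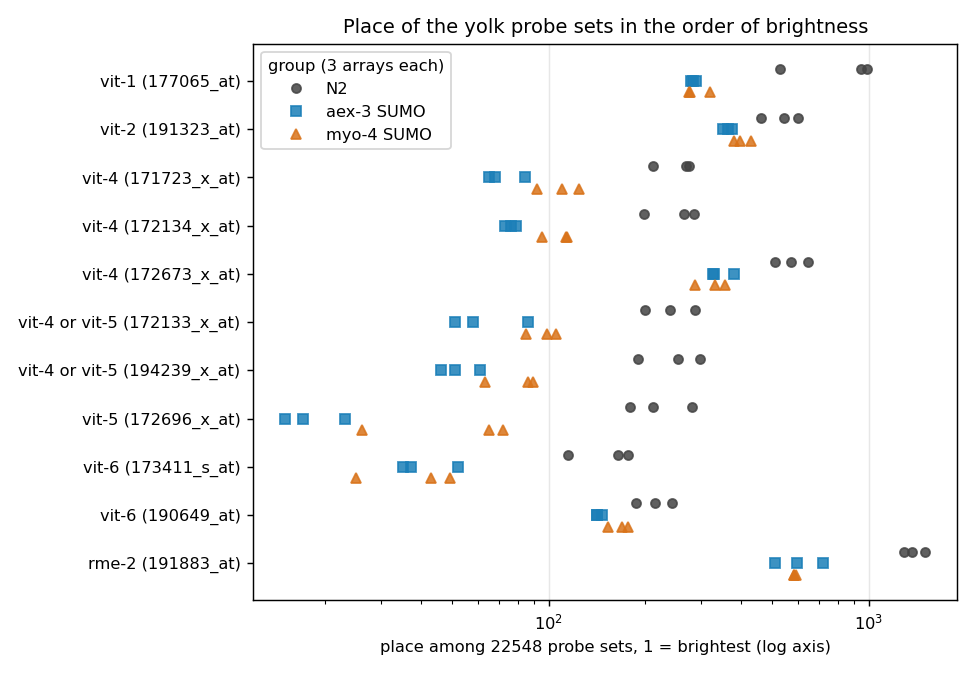
Place of the 11 yolk probe sets (rows) among 22548 probe sets ordered by brightness, 1 being the brightest (x axis, log scale), on each of the 9 arrays. For every set all aex-3 SUMO and myo-4 SUMO arrays lie to the left of, that is brighter in order than, all N2 arrays. The share of all probe sets that do so was not computed.

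A linear rescaling of an array cancels in a ratio of its signals, though a change in the shape of its bright end does not. Both vit-6 sets were taken as the reference after they were seen to have the smallest changes, so the ratios are a description and support nothing. Set against the mean log2 signal of both vit-6 sets on the same array, the 9 other sets were all higher in aex-3 SUMO than on any N2 array. In myo-4 SUMO 8 of the 9 were, vit-2 being the exception. Of the 9 sets, 6 belong to vit-4 and vit-5, and the same share over all probe sets was not computed. For vit-1 this log2 ratio was -2.51 to -1.58 for N2, -0.86 to -0.79 for aex-3 SUMO and -0.93 to -0.70 for myo-4 SUMO. For rme-2 it was -3.07 to -2.94, -2.21 to -1.77 and -2.04 to -1.73. For vit-5 it was -0.38 to -0.02, 0.25 to 0.25 and 0.10 to 0.23. The difference between the line and N2 means of the ratio was 1.33 and 1.32 for vit-1, 1.06 and 1.14 for rme-2, 0.44 and 0.35 for vit-5 and 0.31 and 0.15 for vit-2.

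The vitellogenin sets mostly shared their highest and lowest replicate populations, but 6 of the 10 belong to vit-4 and vit-5 and are not independent. How often all probe sets did so was not computed. N2 replicate 3 had the lowest signal of its group in 10 of 10 vitellogenin sets, and N2 replicate 2 the highest in 8. In aex-3 SUMO replicate 1 was lowest in 9 of 10 and replicate 3 highest in 8. In myo-4 SUMO replicate 1 was lowest in 8 and replicate 2 highest in 10. In both lines the array with the lowest vitellogenin signals also had the lowest mean of the 200 brightest sets (4090 and 3710). In N2 the lowest mean of the brightest sets, 5058, was that of replicate 3, but the highest, 5713, was that of replicate 1. N2 replicate 2, highest in 8 vitellogenin sets, had a mean of 5150. In the lines the highest means were those of aex-3 SUMO replicate 3 (4472) and myo-4 SUMO replicate 2 (4772), also highest in most vitellogenin sets. The brightest sets include yolk sets themselves. The part of array brightness in this order was not tested.

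The vitellogenin genes other than vit-6 lie on the X chromosome, vit-3 and vit-4 next to each other with no protein-coding gene between them, while vit-6 and rme-2 lie on chromosome IV (annotation of assembly WBcel235, used for names and neighbours). More X-linked probe sets were called lower than higher. Of 1920 X-linked probe sets tested, 7.5% were called higher and 37.8% lower in aex-3 SUMO, with a median change of -0.32, and 6.93% higher and 29.8% lower in myo-4 SUMO, with a median of -0.23. On chromosome IV 25.2% were called higher and 23.8% lower in aex-3 SUMO, and 25.9% higher and 19.9% lower in myo-4 SUMO.

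More regulators of the vit genes fell than rose. The list was not split into activators and repressors, so these counts give no direction for vit expression. Of 14 regulators listed, 12 were bright enough to test, and 7 fell and 1 rose in aex-3 SUMO (24% of all probe sets were called lower), at a median of -0.52. In myo-4 SUMO 5 fell and 1 rose (20.3% of all were called lower), at a median of -0.28. The gene pqm-1 encodes a zinc finger factor that acts on vit genes. Its signal was 547 ± 80.5 in N2 and fell to 199 ± 28.1 with aex-3 SUMO and 197 ± 27.3 with myo-4 SUMO (SD, n = 3 arrays each), a change of -1.45 and -1.47 ± 0.15 (limma adjusted p = 2.9e-05 and 2.21e-05). No array of either line overlapped N2.

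Genes of activators were among those that fell. The homeobox gene ceh-60, whose product activates vit genes together with UNC-62, fell from 141 ± 4.64 to 69.9 ± 3.72 and 86.4 ± 15.5, a change of -0.99 and -0.71 (limma adjusted p = 0.000145 and 0.00136). The gut GATA factor genes elt-2 (-0.67 and -0.55) and elt-7 (-1.36 and -1.43) fell in both lines. So did sgk-1 (-0.68 and -0.66), a kinase gene downstream of TORC2 that promotes vit expression. The transcription factor genes lin-29 (-0.45), which drives the switch from larva to adult, and blmp-1 (-0.58) fell in aex-3 SUMO, and lin-29 was at -0.26 in myo-4 SUMO (limma adjusted p = 0.158). The lin-29 call was lost under 3 of 18 alternatives, among them quantile normalization (-0.32, limma adjusted p = 0.0748) and median centring (-0.23, limma adjusted p = 0.194). The member that rose was skn-1 (0.53 and 0.47), a regulator of stress responses and early embryonic fate. For unc-62 the values were -0.04 ± 0.31 and 0.22 ± 0.31 (limma adjusted p = 0.918 and 0.593). The gene mab-3, whose product represses vit genes in the male intestine, was too dim to test, at 1.01 to 7.49 for N2, 0.94 to 7.19 for aex-3 SUMO and 8.24 to 13.5 for myo-4 SUMO, and daf-2 was too dim as well.

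Of 12 genes of lipoprotein assembly and secretion tested, 1 rose and 2 fell in aex-3 SUMO, where 3423 of all 14204 probe sets were called higher and 24% lower, and the median of the list was 0.027. In myo-4 SUMO 5 rose and 1 fell, or 41.7% and 8.33% of the list beside 24% and 20.3% of all probe sets, at a median of 0.057. Under median centring, with 36.1% and 32.5% of all probe sets called higher, 6 rose and 1 fell in each line, so this count depends on the scaling. The gene dsc-4, which encodes the large subunit of the microsomal triglyceride transfer protein that loads lipid onto lipoproteins, was at -0.20 ± 0.13 and -0.08 ± 0.13 (limma adjusted p = 0.200 and 0.633). The COPII coat gene sec-24.1 rose (0.48 and 0.42) and the calreticulin gene crt-1 fell (-0.65 and -0.59) in both lines. The disulfide isomerase gene pdi-3 fell in aex-3 SUMO (-0.39), a call lost under quantile normalization (-0.21, limma adjusted p = 0.0696) and median centring (-0.18, limma adjusted p = 0.213). The COPII gene sec-24.2 rose in myo-4 SUMO (0.43), a call lost under 2 of 18 alternatives.

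Of 23 genes tested from a list for endocytosis, 3 rose and 2 fell in aex-3 SUMO (median 0.12). These were 13.0% and 8.70% of the list, where 3423 of all 14204 probe sets were called higher and 24% lower. Whether each gene takes part in yolk uptake was not tested. In myo-4 SUMO 7 rose and 1 fell (median 0.13), or 30.4% and 4.35% of the list beside 24% and 20.3% of all probe sets. Under median centring 9 rose and 1 fell in each line, where 36.1% and 32.5% of all were called higher. The caveolin gene cav-1 rose by 1.29 and 1.18, from a dim N2 signal of 14.6 ± 6.66. The gene lrp-1, which encodes a megalin homologue, fell by 0.70 and 0.61 (limma adjusted p = 0.00086 and 0.00227). The recycling gene rme-1 was at 0.21 ± 0.10 in aex-3 SUMO (limma adjusted p = 0.109) and rose by 0.32 in myo-4 SUMO, a call lost under 3 of 18 alternatives. The polarity gene par-6 rose in myo-4 SUMO (0.49). Near the threshold in aex-3 SUMO were par-6 (0.29, limma adjusted p = 0.0493) and rab-10 (0.28, limma adjusted p = 0.0494). So was the clathrin adaptor gene apa-2 (-0.32, limma adjusted p = 0.0483). The par-6 call was lost under 12 of 18 alternatives. The apa-2 call was lost under 13 of 18, and under median centring its change was -0.10 (limma adjusted p = 0.525).

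Most protease and lysosome genes fell. Of 12 tested, 9 fell and 2 rose in each line, with medians of -0.64 and -0.70, where 24% and 20.3% of all probe sets were called lower. The largest falls were those of the cathepsin B-like genes cpr-4 (-1.48 and -2.06), cpr-1 (-1.17 and -1.33) and cpr-5 (-1.03 and -1.11). The cathepsin L gene cpl-1, whose product processes yolk in oocytes and embryos, was at -0.25 in aex-3 SUMO (limma adjusted p = 0.0477) and at -0.21 in myo-4 SUMO (limma adjusted p = 0.0862). The former call was lost under 12 of 18 alternatives, with the change of cpl-1 at -0.09 under quantile normalization (limma adjusted p = 0.304) and -0.03 under median centring (limma adjusted p = 0.829). The genes that rose were cup-5 (0.95 and 0.79), which encodes a lysosomal mucolipin channel, and cup-4 (0.61 and 0.65), needed for endocytosis by coelomocytes, the scavenger cells of the body cavity. Of 15 genes for small lipid-binding proteins tested, 1 rose and 5 fell in aex-3 SUMO and 0 (also 0 at an unadjusted p below 0.05) rose and 6 fell in myo-4 SUMO, a balance of 5 and 4 and of 1 and 3 under median centring. The shares that fell, 33.3% and 40%, stand beside 24% and 20.3% of all probe sets. The fatty acid and retinol binding protein gene far-7 fell the furthest (-2.02 and -2.51), from 437 ± 132 in N2 to 108 ± 34.7 and 74.0 ± 15.1, and lbp-7 (-0.77 in both), lbp-1 (-0.50 and -0.79) and far-1 (-0.50 and -0.43) fell too. The far-1 call in myo-4 SUMO was lost under median centring (-0.28, limma adjusted p = 0.0509). The member that rose in aex-3 SUMO was lbp-4 (0.37, limma adjusted p = 0.0321).

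**Figure D5:**
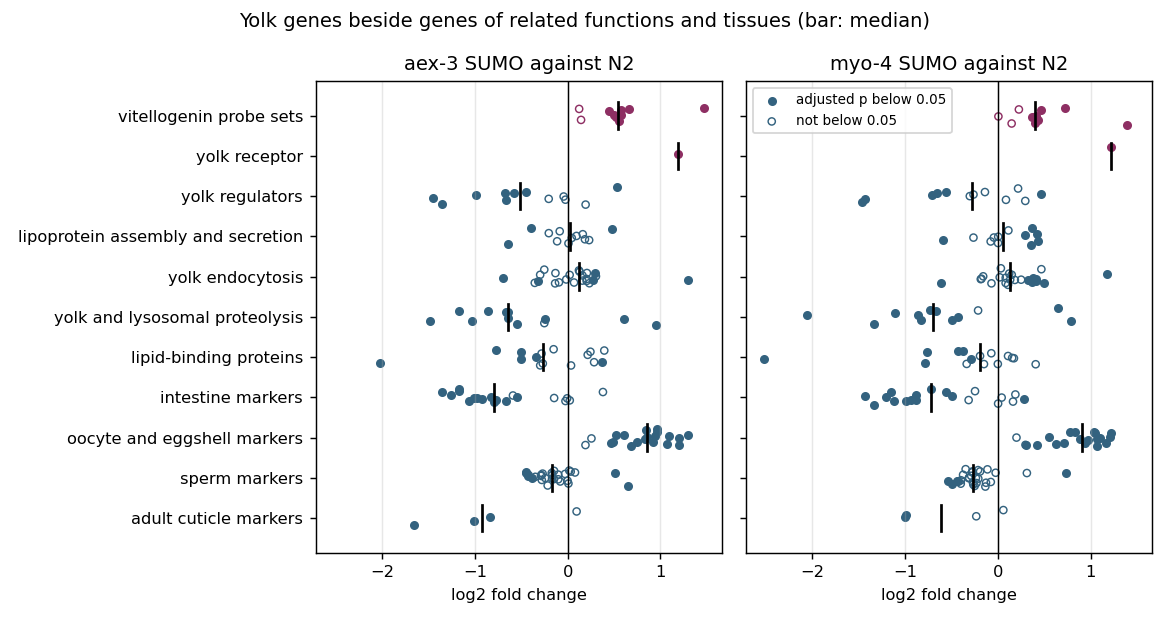
Log2 fold change over N2 (x axis) of the vitellogenin probe sets, the yolk receptor and genes of 9 lists (rows) in aex-3 SUMO (left) and myo-4 SUMO (right). Each point is 1 probe set, filled where the adjusted p is below 0.05, and black bars are medians. Oocyte and eggshell genes lie on the side of the yolk sets, and intestinal, protease and regulator genes lie mostly on the other. The regulators were not split into activators and repressors of vit genes.

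The vitellogenins are products of the intestine and rme-2 of the oocyte, and markers of these tissues moved in opposite directions. Of 19 intestinal genes, 13 fell and 0 rose in aex-3 SUMO by limma, also 0 at an unadjusted p below 0.05, at a median of -0.79, where 24% of all probe sets were called lower. In myo-4 SUMO 12 fell, where 20.3% of all were called lower, and 1 rose, the peptide transporter gene pept-1 (0.28, limma adjusted p = 0.0467), at a median of -0.72. Their summed signal was 22889 to 26283 for N2, 16062 to 17450.0 for aex-3 SUMO and 14915 to 17946 for myo-4 SUMO. The gut intermediate filament genes ifd-1 (-1.26 in aex-3 SUMO) and ifb-2 (-1.21 in myo-4 SUMO) were among the largest falls. The genes elt-2, elt-7 and cpr-1, described above, belong to this list too.

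Of 20 oocyte and eggshell genes, 18 rose and 0 fell in each line by limma, also 0 at an unadjusted p below 0.05, with medians of 0.85 and 0.91, and 20 rose without N2 replicate 1. Over all 14204 probe sets 3423 and 3412 were called higher. Their summed signal was 11767 to 19155 for N2, 23188 to 24436 for aex-3 SUMO and 22292 to 25098 for myo-4 SUMO. The change of rme-2 was above these medians and about that of the 3 genes with the largest changes of the oocyte and eggshell list. They were the eggshell and egg activation genes egg-2 (1.30 and 1.20) and egg-3 (1.20 and 1.16) and oma-2 (1.20 and 1.22), a regulator of oocyte maturation. Of 28 sperm genes, many of them major sperm protein genes with near-identical copies, 2 rose and 3 fell in aex-3 SUMO and 1 rose and 4 fell in myo-4 SUMO. The shares that fell, 10.7% and 14.3%, were below the 24% and 20.3% of all probe sets, and those that rose, 7.14% and 3.57%, below the 3423 and 3412 of 14204. Their medians of -0.17 and -0.27 turned to 0.011 in aex-3 SUMO and -0.023 in myo-4 SUMO under quantile normalization. Under median centring, and without N2 replicate 1, which had the highest summed sperm signal, 2 rose and 0 fell in each line. The rises were those of spe-39 (0.65 and 0.73) in both lines and ssp-19 (0.51) in aex-3 SUMO, and msp-65 (-0.45 and -0.50) and, in myo-4 SUMO, msp-19 (-0.54) were among the falls. Of 18 alternatives, 10 lost the msp-65 call in aex-3 SUMO and 8 that in myo-4 SUMO, and 4 lost that of ssp-19. No gene of the intestinal, oocyte or sperm lists was at 0 on any array. Of 4 adult cuticle collagen genes tested, 3 fell in aex-3 SUMO, where 24% of all probe sets were called lower. They were rol-6 (-1.66), bli-2 (-1.01) and bli-1 (-0.84). In myo-4 SUMO rol-6 fell from a signal of 404 to 203 and bli-2 by 0.99, where 20.3% of all were called lower. The other gene tested, col-19, was called in neither line, at 0.096 and 0.058 (limma adjusted p = 0.3675 and 0.6006). Under quantile normalization 1 rose and 3 fell in aex-3 SUMO, and 1 rose and 2 fell in myo-4 SUMO. The part that the number of oocytes or gut cells plays in the yolk signals was not tested.

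Genes with the pattern most like the receptor's were sought among 13403 probe sets with 1 gene, by the root mean square difference of log2 signals centred on their mean over the 9 arrays. For rme-2, whose own values spanned 1.57 on that scale, they were mrp-4 (0.0755), which encodes an ABC transporter, mcrs-1 (0.0831), F25H2.4 (0.0943), icp-1 (0.11), an INCENP homologue of chromosome segregation, and pid-5 (0.116). The mrp-4 signal was 62.5 ± 8.90 in N2, 143 ± 17.7 in aex-3 SUMO and 143 ± 2.94 in myo-4 SUMO. The named-gene rule also takes the vitellogenin set whose signal averaged over the 9 arrays is the highest. For it, 173411_s_at of vit-6, whose values spanned only 0.488, they were fnip-2 (0.0604), the transketolase gene tkt-1 (0.0661), cdr-2 (0.0724), par-5 (0.0729), which encodes a 14-3-3 protein, and the collagen gene col-140 (0.0753). None of these passed in either comparison with N2 (limma adjusted p = 0.102 to 0.996). That follows from their choice by likeness to a set that was itself not called, so it is no separate result.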

How the data were processed

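RNA of whole worms was measured on 9 one-colour arrays, 3 each for N2, aex-3 SUMO and myo-4 SUMO. The authors deposited a linear signal intensity for each probe set. The submitters' processing notes name GCOS, without a version. The 2% trimmed means of the arrays differed by 0.00889%, so values were taken as already scaled. No detection calls are in the table used. The number of arrays limits the precision. Probe sets were named through the platform annotation, updated by gene identifier against a table on WBcel235. Of 22548 probe sets left after removing 77 controls, 20766 had 1 gene, 887 several and 895 none.

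A pseudocount of 1.62, the median of the arrays' 10th percentiles, was added before log2 was taken. A probe set was kept when at least 3 arrays placed it above their 40th percentile (14204 were). All 9 arrays entered 1 limma fit (limma 3.58.1, R 4.3.3; eBayes with an intensity trend; 6 residual and 6.88 prior degrees of freedom). A separate limma fit with the same kind of trend was run on simulated data. Each test was two-sided at a threshold of 0.05 after the Benjamini-Hochberg method had been applied to all probe sets kept. The p-values set the difference between groups against the spread between replicate populations, estimated from all 9 arrays. With 1 strain per promoter they say nothing about the spread between transgenic strains. Lists used 1 probe set per gene, that with the highest mean.

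Named genes are every yolk set, 9 fixed regulators or partners, and up to 3 called members per list and comparison with the largest changes, plus the 5 most alike. Other genes named, among them the few members of small counts, were chosen after their values were seen. The members and lists were chosen with earlier results of these data known. Alternatives were other scalings, filters, pseudocounts, a fit without the trend, only the groups compared, a replicate block and leaving out each array. No sequences are shown, since none were in the tables used.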

Additional observations from a re-analysis of the deposited data

How the results depend on the processing

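The number of yolk sets called was 9 in aex-3 SUMO against N2, between 9 and 11 under every alternative. In myo-4 SUMO against N2 it was 8, but 5 with no filter on dim probe sets, and 4 to 9 when 1 array was left out, with 4 both without N2 replicate 3 and without myo-4 SUMO replicate 2. Between the lines it was 0 under all 18 alternatives. No change of a yolk set or named gene that was called turned its sign under an alternative. Context genes called between the lines numbered 0, and 2 when only the groups compared were fitted. With the replicate block the numbers of yolk sets called were 9, 8 and 0, as without it. The correlation of same-numbered arrays' deviations from their group means was -0.194 to 0.0295, and 4 of 18 were best with their own number, so the numbers were not taken as pairs. The yolk sets are bright, so pseudocounts of 1 and 16 hardly moved them. The scale at the bright end limits them more, as the differing bright ends of the arrays show.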
